A study of Mus musculus with 8 samples.

Results

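The 10 genes described here encode the core of the BCL2 family in mouse cells: the survival proteins Bcl2, Bcl2l1 (BCL-XL) and Mcl1, the BH3-only proteins Bcl2l11 (BIM), Pmaip1 (NOXA), Bbc3 (PUMA), Bad and Bid, and the pore-forming effectors Bax and Bak1. They were chosen as named members of the family and make up 10 of the 23183 genes listed in the count files. All 10 had enough reads to be among the 12239 genes tested. They were measured in 8 bulk mRNA-seq libraries of group 2 innate lymphoid cells (ILC2s), lymphocytes of the airway mucosa that release IL-5 and IL-13. The cells were enriched from the lungs of mice labelled C57BL/6 (C57BL/6 J in the study's methods, 6 to 10 weeks old, of both sexes) that had received recombinant IL-33, and both groups were cultured in IL-2, IL-7 and IL-33 at 10 ng/mL each. The 4 Yoda1 libraries came from cells given 5 µM Yoda1, a chemical agonist of the mechanosensitive cation channel Piezo1, and the 4 DMSO libraries from cells given 0.1% of the solvent, each for 3 h. No genetic change is named for either group, and Yoda1 stands in for mechanical force in this design. The labels do not say whether the 4 libraries of a group came from separate mice or separate cultures, so the p-values measure only the spread between these libraries, which may be technical.

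The BCL2 family decides whether the outer membrane of the mitochondrion stays intact. The survival proteins hold BAX and BAK in check, BH3-only proteins bind and neutralise the survival proteins or activate the effectors directly, and once BAX and BAK form pores, cytochrome c leaves the mitochondrion and caspases are activated. Lymphocytes depend on cytokines such as IL-7 and IL-2 to keep BCL2 and MCL1 high and BIM low, and NOXA binds mainly to MCL1 and promotes its degradation. Much of the control of these proteins lies in translation, phosphorylation and degradation, none of which is measured by mRNA-seq.

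Total counts per library ran from 13435521 to 18216729 in the DMSO group and from 12438009 to 19534653 in the Yoda1 group, so that 1 count corresponded to 0.0514 to 0.0807 CPM, that is, the count scaled to a common library total with TMM factors. All 15 ILC2 markers examined were detected, with summed levels of 18762.8 to 19281.3 CPM in DMSO and 21065.5 to 21462.7 CPM in Yoda1. Most of the sum came from Il13, Il2ra and Il5, and mean Il13 went from 5431 CPM in DMSO to 6667 CPM in Yoda1. In the test described below, 7 of the 15 were called higher and 1, Icos, lower, beside 6.04% and 4.84% of all genes tested. Gata3, Rora, Id2 and Klrg1 were among those not called. The 7 T cell markers measured, of 10 listed, summed to 70.5 to 78.1 CPM in DMSO and 76.0 to 86.1 CPM in Yoda1 (exact permutation test, two-sided, p = 0.0571) with 0 called. Trac, Trbc1 and Trbc2 were not among the genes counted. The 6 B cell markers measured, of 8 listed, summed to at most 8.25 CPM in any library. Ighm and Igkc of that list were not among the genes counted. Macrophage or dendritic cell markers summed to at most 12.8 CPM and mast cell or basophil markers to at most 7.31 CPM. Natural killer cell or ILC1 markers summed to 814 to 906 CPM in DMSO and 868 to 934 CPM in Yoda1, mostly from Gzma and Prf1, which activated lymphocytes of several kinds express, and Eomes, Klra9 and Prf1 of this list were called higher. Of the epithelial or stromal markers, Sftpc and Scgb1a1 were listed at 0 in every library, and the endothelial gene Pecam1, which leukocytes also express, made up most of the list's 217 to 230 CPM. In bulk RNA of this kind, fewer cells of a type and less RNA per cell cannot be told apart.

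Yoda1 raised the mRNA of 2 of the 10 BCL2 family genes, Bcl2l11 and Pmaip1, both encoding BH3-only death proteins. The other 8, including all 3 survival genes and both effectors, did not pass the test. The increases were modest, 1.38-fold for Bcl2l11 and 1.21-fold for Pmaip1. Cell death cannot be read from these mRNA levels, and the study reported, from Annexin V staining, that Yoda1 did not induce apoptosis. The test was edgeR's quasi-likelihood F test, p-values were adjusted by Benjamini and Hochberg's method over the 12239 genes, and a gene was called at an adjusted p under 0.05. By that rule 10.9% of all genes tested were called, 6.04% higher and 4.84% lower. Among the 10, 2 were called higher and 0 lower. At an unadjusted p under 0.05 there were 4, of which Bcl2l11, Pmaip1 and Bak1 were higher and Bcl2 lower in Yoda1, where 25.3% of all genes tested were under that p. DESeq2 and limma-voom also called 2 higher and 0 lower. In TMM-scaled CPM the Yoda1 and DMSO libraries did not overlap for 4 of the 10, with Yoda1 above in each case. Of all genes tested, 15.5% had groups that did not overlap, 1033 with Yoda1 above and 863 with Yoda1 below. For Mcl1 and Bad among the 4 the gap was small, and with counts divided by library totals alone their groups overlapped. The median log2 fold change of the 10 was 0.03, beside -0.01 over all genes tested. The genome-wide split of 739 higher and 592 lower depended on the scaling and became 505 and 958 with upper-quartile factors and 553 and 809 with library size only, but Bcl2l11 and Pmaip1 were called higher under each of these.

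**Figure D1:**
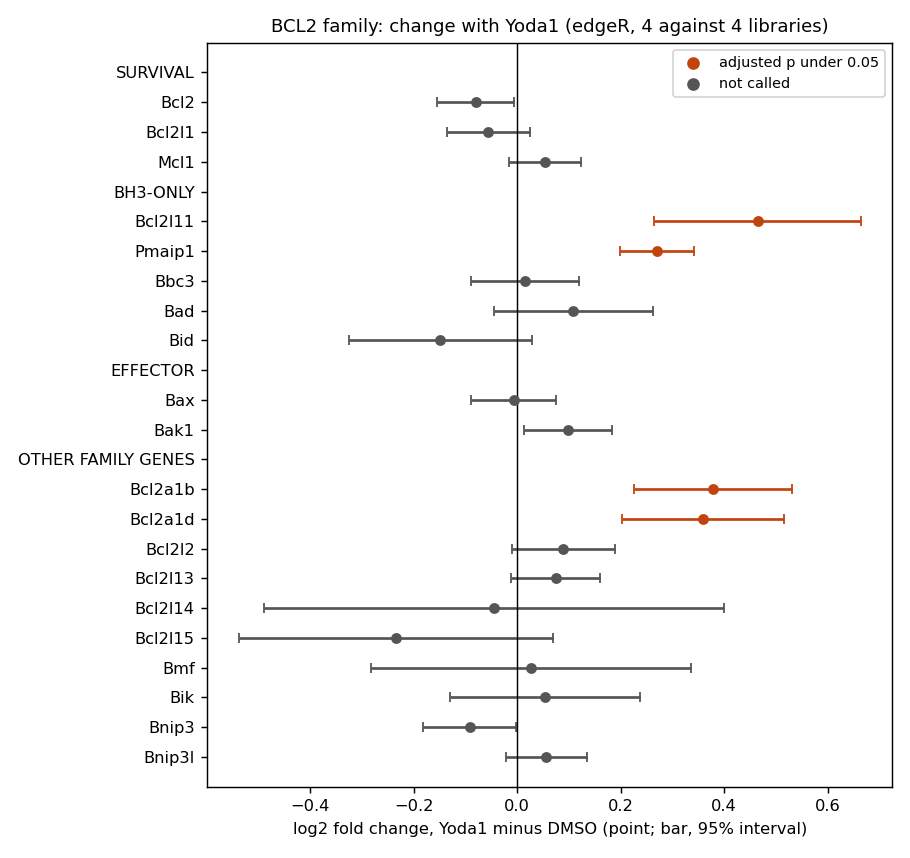
Change of each BCL2 family gene tested with Yoda1. The horizontal axis is the log2 fold change of Yoda1 minus DMSO over 4 against 4 libraries, points are edgeR estimates and bars their 95% intervals, and genes are grouped by role. Of the 20 genes, Bcl2l11, Pmaip1, Bcl2a1b and Bcl2a1d, drawn in orange, had an adjusted p under 0.05, and all 4 lie above 0.

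Of the survival genes, Bcl2 (chromosome 1, 106538178 to 106714274 on the minus strand of GRCm38) had the highest count of the family. It read 472, 507, 478 and 482 CPM in DMSO replicates 1 to 4 and 456, 485, 443 and 451 CPM in Yoda1 replicates 1 to 4. The group means were 484.6 ± 15.3 and 458.3 ± 18.3 CPM (SD, n = 4), and the groups overlapped because Yoda1 replicate 2 lay above 3 of the DMSO libraries. The log2 fold change was -0.08 (SE 0.037, 95% interval -0.16 to -0.01) with an adjusted p of 0.165. With upper-quartile factors it was -0.11 with an adjusted p of 0.0428, the one setting of 16 in which Bcl2 was called.

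Bcl2l1 (chromosome 2, 152780668 to 152831728, minus strand), whose long form BCL-XL protects many cell types, was close to level. It read 192, 205, 195 and 181 CPM in DMSO and 181, 186, 185 and 192 CPM in Yoda1, so the 4 Yoda1 values lay almost wholly within the DMSO range. The log2 fold change was -0.06 (95% interval -0.14 to 0.02, adjusted p = 0.398). The counts are per gene and do not separate the long, protective form from the short, death-promoting splice form.

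Mcl1 (chromosome 3, 95658788 to 95663176, plus strand) encodes a short-lived survival protein that many lymphocytes need. It read 305.8, 308.0, 293.3 and 300.9 CPM in DMSO and 308.9, 310.8, 320.0 and 314.7 CPM in Yoda1. Every Yoda1 library was above every DMSO library, by less than 1 CPM at the nearest pair (exact permutation test, two-sided, p = 0.0286, the smallest that 4 against 4 allow). With counts divided by library totals alone the groups overlapped. The log2 fold change was 0.05 (SE 0.034, 95% interval -0.02 to 0.12), and the gene was not called (adjusted p = 0.338). For the 3 survival genes together the median log2 fold change was -0.06, and their 95% intervals lay between -0.16 and 0.12.

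Among the BH3-only genes, Bcl2l11 changed most. Its protein, BIM, binds every survival protein of the family and is the BH3-only protein most closely tied to the death of lymphocytes deprived of cytokine. The gene lies on chromosome 2 from 128126038 to 128162547 on the plus strand of GRCm38, with 8 annotated transcripts. It was the least abundant of the 10, with 114 to 223 counts a library. It read 8.01, 9.97, 8.18 and 8.43 CPM in DMSO and 11.6, 13.3, 11.5 and 11.5 CPM in Yoda1. Replicate 2 was the highest of both groups, and no Yoda1 library came down to the highest DMSO library. The means were 8.65 ± 0.896 and 11.97 ± 0.908 CPM (SD, n = 4), a log2 fold change of 0.46 (SE 0.098) with an adjusted p of 0.00173. The fold was 1.38 with a 95% interval of 1.202 to 1.585 (exact permutation test, two-sided, p = 0.0286). Across the 16 other settings the log2 fold change stayed between 0.41 and 0.55, and the gene was called in each. The change was larger than that of 96.1% of the genes tested, and the gene ranked 333rd by adjusted p.

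The Bcl2l11 promoter is shown because the gene has the largest fold change of the family and because its sequence holds a site for EGR factors, zinc-finger proteins induced within minutes of calcium and growth signals. RefSeq places the window at chr2:128125788-128126087 of GRCm38.p6, plus strand, from 250 bases before the start to 50 bases after, and 71.0% of its bases are G or C. The capitals mark the match to GCGNGGGCG, at bases 201 to 209 of the window, 50 bases before the start.
Bcl2l11 promoter: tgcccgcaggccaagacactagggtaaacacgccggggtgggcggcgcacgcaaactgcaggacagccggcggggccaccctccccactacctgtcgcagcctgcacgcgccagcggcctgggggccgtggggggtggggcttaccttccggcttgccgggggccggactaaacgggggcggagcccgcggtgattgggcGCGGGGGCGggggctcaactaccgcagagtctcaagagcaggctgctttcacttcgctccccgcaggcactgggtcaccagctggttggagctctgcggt
The same search on both strands found this motif in 5.55% of the 32851 promoter windows of the genome, and the window of a second Bcl2l11 start at chr2:128127325-128127624 held none. Among the 30 windows searched, of 21 of the 25 BCL2 family genes, the EGR motif stood in 6, belonging to Bbc3, Bcl2a1b, Bcl2a1c, Bcl2a1d and Bcl2l11. Pmaip1, Bcl2l10, Bik and Bnip3l were not searched, so these counts say nothing of their promoters. Of these, Bcl2a1b, Bcl2a1c and Bcl2a1d are copies of one another with the same matched letters, and not independent examples. Bbc3 was not called (adjusted p = 0.891 in the edgeR test), and Bcl2a1c, at 0 to 3 counts a library, was not tested. A cyclic AMP response element, TGACGTCA, stood in 0 of the 30 beside 1.79% of all windows, and a kappaB site in 3 (Bbc3, Bcl2l1 and Bmf) beside 4.51%. These matches describe the letters only, since factor binding was not measured, and the motifs were chosen with the expression results known.

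Pmaip1 rose with little spread among replicates. Its protein, NOXA, is known as the product of a p53 target gene. It read 182.6, 186.1, 183.8 and 191.9 CPM in DMSO and 223.9, 228.7, 221.6 and 223.1 CPM in Yoda1. The lowest Yoda1 library was therefore well clear of the highest DMSO library, and each group spanned under 10 CPM. The means were 186.1 ± 4.13 and 224.3 ± 3.09 CPM (SD, n = 4), with a log2 fold change of 0.27 (SE 0.035) and an adjusted p of 2.55e-06. The fold was 1.21 with a 95% interval of 1.147 to 1.267 (exact permutation test, two-sided, p = 0.0286). It was called in all 16 other settings, with log2 fold changes of 0.24 to 0.28. The gene ranked 70th by adjusted p, and its change was larger than that of 88.0% of genes. The difference in log2 fold change between Bcl2l11 and Pmaip1 was not tested.

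The other 3 BH3-only genes were not called. Bbc3 (chromosome 7, 16308393 to 16318205, plus strand) encodes PUMA, the other main BH3-only target of p53. It read 74.9, 73.6, 65.7 and 64.7 CPM in DMSO and 67.4, 67.8, 75.4 and 71.8 CPM in Yoda1, with both groups split in the same range. Its log2 fold change was 0.02 (95% interval -0.09 to 0.12, adjusted p = 0.891), and its sign turned in some of the other settings (-0.02 to 0.05).

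Bad (chromosome 19, 6941861 to 6951899, plus strand), a BH3-only protein held inactive by survival kinases, read 17.78, 16.98, 15.54 and 17.66 CPM in DMSO and 19.78, 18.02, 17.85 and 17.80 CPM in Yoda1. The groups did not overlap, although Yoda1 replicate 4 was barely above DMSO replicate 1, and they overlapped with counts divided by library totals alone. The log2 fold change was 0.11 (95% interval -0.04 to 0.26, adjusted p = 0.389). Bid (chromosome 6, 120891930 to 120916853, minus strand), which caspase-8 cleaves to link death receptors to the mitochondrion, read 14.2, 15.4, 15.2 and 15.3 CPM in DMSO and 13.9, 15.2, 11.3 and 13.7 CPM in Yoda1. Yoda1 replicate 3 was the lowest library, and the log2 fold change was -0.15 (95% interval -0.33 to 0.03, adjusted p = 0.292). Exons of Bad overlap Gpr137 and exons of Bid overlap Bcl2l13, each on the opposite strand, and since the strand setting of the counting is not given, reads of such pairs may not be fully separated. Exons of Bak1 also overlap Ggnbp1 (3 to 10 counts a library) and those of Bcl2 overlap D630008O14Rik, both on the opposite strand. Those of Bax overlap Gm45808 on the same strand. The 5 BH3-only genes had a median log2 fold change of 0.11.

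**Figure D2:**
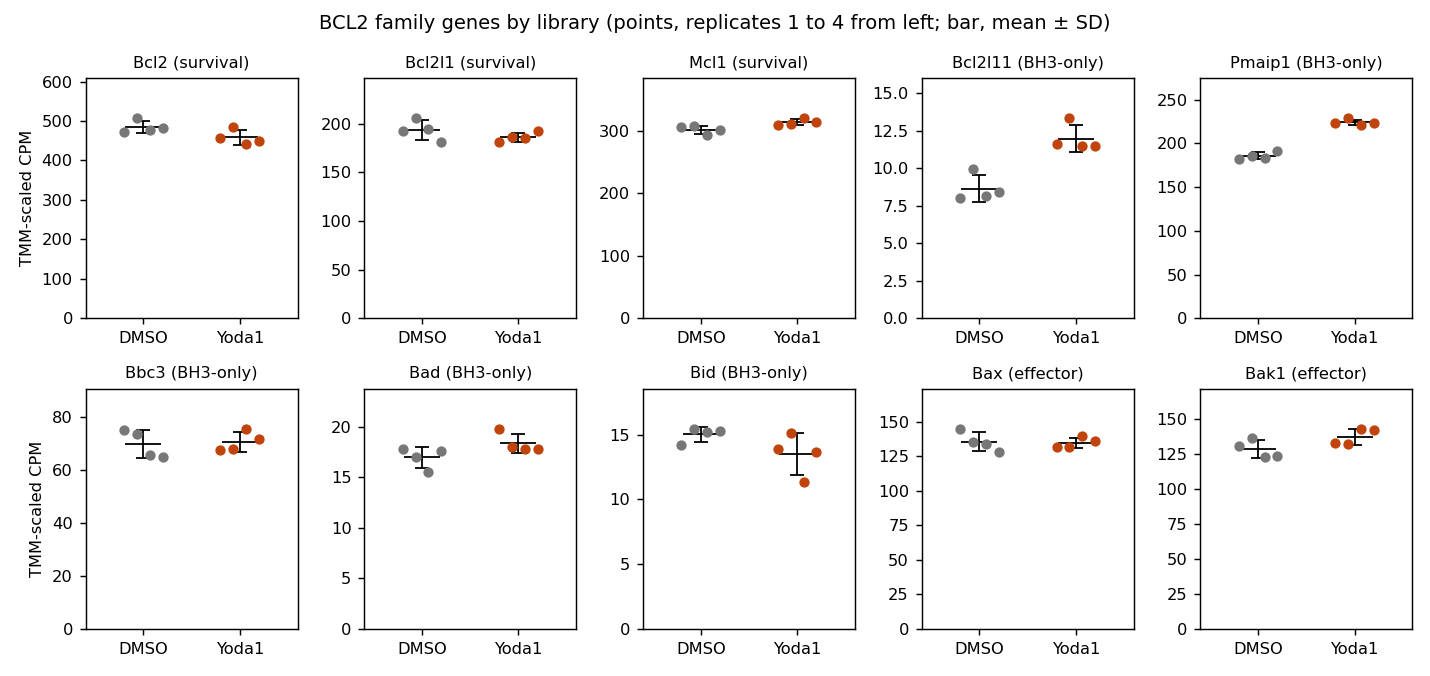
Level of each of the 10 BCL2 family genes by library. Each panel is 1 gene, the vertical axis is CPM of the TMM-scaled library from 0, points are libraries with replicates 1 to 4 from left to right, and the bars are the mean ± SD of 4 libraries. For Bcl2l11 and Pmaip1 the orange Yoda1 points lie clear above the grey DMSO points, while in the other panels the groups lie at nearly the same height.

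Neither effector gene passed the test. Bax (chromosome 7, 45461697 to 45466898, minus strand) read 144.8, 135.4, 133.7 and 128.3 CPM in DMSO and 131.9, 132.0, 139.6 and 136.4 CPM in Yoda1. All 4 Yoda1 libraries lay inside the DMSO range, and the log2 fold change was -0.01 (95% interval -0.09 to 0.08, adjusted p = 0.939). Bak1 (chromosome 17, 27019810 to 27029009, minus strand) read 130.8, 136.9, 123.1 and 123.7 CPM in DMSO and 133.1, 132.4, 143.1 and 142.2 CPM in Yoda1. Yoda1 replicates 3 and 4 were the highest, but DMSO replicate 2 exceeded the other 2 Yoda1 libraries. Its log2 fold change was 0.10 (95% interval 0.01 to 0.18) with an unadjusted p of 0.0265 and an adjusted p of 0.136.

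Levels of different genes were set side by side as CPM per kilobase of annotated exon. In DMSO, Mcl1 (88.4 ± 1.91, SD, n = 4) and Bax (86.0 ± 4.35) were highest and overlapped between libraries. Pmaip1 followed at 68.1 ± 1.51, then Bak1 at 53.4 ± 2.7 and Bcl2 at 52.9 ± 1.67, which overlapped, Bcl2l1 at 42.2 ± 2.15 and Bbc3 at 32.8 ± 2.48. The remaining 3 were far lower on this scale, Bad at 6.64 ± 0.403, Bid at 4.24 ± 0.159 and Bcl2l11 at 1.08 ± 0.112. By the mean over all 8 libraries, Mcl1 and Bax stood above 96.2% and 96.0% of the genes tested and Pmaip1 above 95.3%, whereas Bcl2l11 stood above 19.1%. In Yoda1 the order of means was the same as in DMSO, but Pmaip1 at 82.1 ± 1.13 now overlapped Bax at 85.6 ± 2.37, and Bcl2l11 reached 1.49 ± 0.113. So the gene with the largest fold change had the lowest level per length of the 10, and Pmaip1 added far more transcript per length. These levels depend on the exon length used, and with the longest protein-coding transcript as length Bax stood above Mcl1 in both groups, and Bcl2l1 above Pmaip1 in DMSO but below it in Yoda1.

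**Figure D3:**
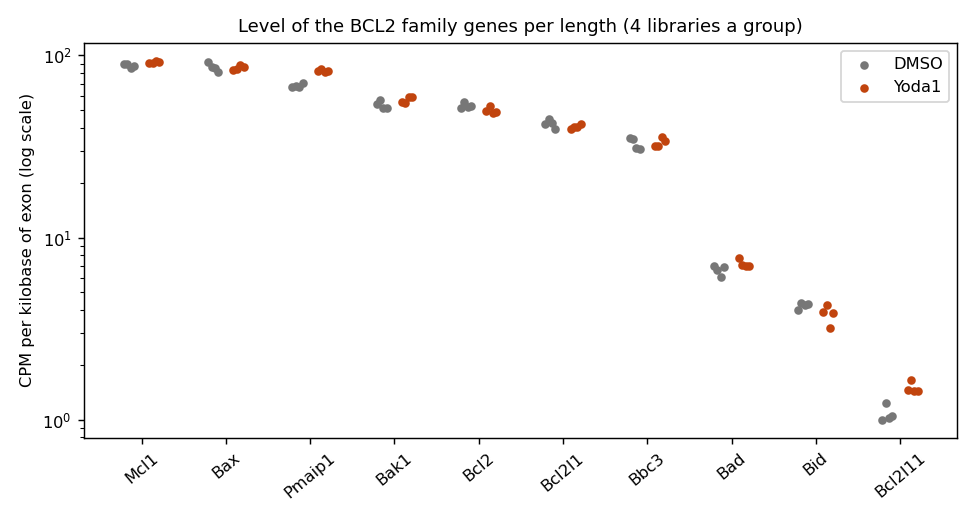
Level of the 10 genes per length. The vertical axis is CPM per kilobase of annotated exon on a log scale, each point is 1 of 8 libraries, grey for DMSO and orange for Yoda1, and genes are ordered by their DMSO mean. The levels fall from 88.4 for Mcl1 to 1.08 for Bcl2l11 in DMSO, and the Yoda1 points are raised clear of DMSO for Pmaip1 and Bcl2l11.

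Expressed as parts of the summed per-kilobase level of the 10 genes, the BH3-only genes held 25.7% to 26.5% in the DMSO libraries and 28.0% to 28.5% in the Yoda1 libraries. The survival genes held 41.3% to 42.5% and 39.8% to 40.8%, and the effectors 31.2% to 33.0% and 30.7% to 32.3%. The groups did not overlap for the BH3-only and survival shares and overlapped for the effectors. A share can fall because another part rises, and mean Pmaip1 went from 68.1 in DMSO to 82.1 in Yoda1. The shares also leave out Bcl2a1b and Bcl2a1d, which encode a further survival protein. On the same scale Bcl2a1b averaged 23.75 in DMSO and 30.8 in Yoda1, and Bcl2a1d 18.67 and 24.0. Against Mcl1, its main binding partner, Pmaip1 stood at 74.7, 75.6, 78.4 and 79.8 per 100 in DMSO and at 90.7, 92.1, 86.6 and 88.7 per 100 in Yoda1, on the per-kilobase scale. Bcl2l11 stood at 1.94 to 2.24 per 100 of Bcl2 in DMSO and at 2.90 to 3.14 in Yoda1. These shares and ratios restate the levels above and were not tested, and they describe mRNA, not protein.

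Of 15 further BCL2 family genes, 10 were tested, 2 were called higher and 0 lower, beside 6.04% and 4.84% of all genes tested. Their median log2 fold change was 0.05. Both called genes encode A1, a short-lived survival protein of haematopoietic cells, which mice carry in several near-identical copies. Bcl2a1b (chromosome 9, 89199209 to 89207827, plus strand) read 17.34, 18.02, 20.91 and 21.36 CPM in DMSO and 25.7, 23.1, 26.6 and 25.3 CPM in Yoda1, a log2 fold change of 0.38 (SE 0.075) with an adjusted p of 0.000893. Bcl2a1d (chromosome 9, 88723285 to 88731914, minus strand) read 18.2, 15.2, 15.5 and 15.6 CPM in DMSO and 20.5, 20.1, 22.3 and 19.9 CPM in Yoda1, a log2 fold change of 0.36 (SE 0.076) with an adjusted p of 0.00197. In both, every Yoda1 library was above every DMSO library. Because 79.2% and 79.5% of the 50-base stretches of their exons also occur in other genes, the split of reads between the copies is uncertain. The 2 calls are therefore not independent of each other. Summed over both copies, a step added after seeing the data, the level was 35.5 ± 1.63 CPM in DMSO and 45.9 ± 2.41 CPM in Yoda1, a ratio of 1.29 with groups that did not overlap (exact permutation test, two-sided, p = 0.0286). Thus the summed A1 transcripts rose beside the death genes Bcl2l11 and Pmaip1, while Bcl2, Bcl2l1 and Mcl1 were not called.

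The Bcl2a1b promoter is shown as the counterpart among survival genes. Its window is chr9:89199023-89199322 of GRCm38.p6, plus strand, in RefSeq, and 46.7% of its bases are G or C. The capitals mark TGAATCA, a match to the AP-1 search pattern TGANTCA, in which the middle base was left free. It is followed by an EGR motif on the opposite strand, and the motifs do not overlap.
Bcl2a1b promoter: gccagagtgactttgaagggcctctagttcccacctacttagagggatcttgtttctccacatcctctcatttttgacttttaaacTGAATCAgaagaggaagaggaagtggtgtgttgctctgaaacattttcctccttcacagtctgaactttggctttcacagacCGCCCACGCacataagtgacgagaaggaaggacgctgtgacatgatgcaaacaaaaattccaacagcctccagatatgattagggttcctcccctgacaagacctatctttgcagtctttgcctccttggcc
The pattern TGANTCA stood in 7.81% of all promoter windows. Among the family windows searched, which did not include Pmaip1, it stood in those of Bcl2a1a, Bcl2a1b and Bcl2a1d, which are copies of one another and not independent examples.

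The other 8 tested family genes were not called. Bcl2l2, which encodes the survival protein BCL-W, averaged 54.7 ± 2.13 CPM in DMSO and 58.2 ± 2.84 CPM in Yoda1 (log2 fold change 0.09, adjusted p = 0.254). The mitophagy receptor genes Bnip3 and Bnip3l had log2 fold changes of -0.09 (adjusted p = 0.186) and 0.06 (adjusted p = 0.384), and Bcl2l13 one of 0.07 (adjusted p = 0.276). Bmf and Bik, further BH3-only genes, had log2 fold changes of 0.03 (adjusted p = 0.937) and 0.05 (adjusted p = 0.769). Bcl2l14 and Bcl2l15, at under 5 CPM on average in both groups, had log2 fold changes of -0.04 (adjusted p = 0.928) and -0.23 (adjusted p = 0.342). Bcl2a1a had 1 to 9 counts a library, Bcl2a1c 0 to 3, Bok 4 to 14, Hrk 0 to 1 and Bcl2l10 0, which was too few to test.

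Downstream of the family, 24 genes of the mitochondrial death machinery were tested, of which 2 were called higher and 2 lower. The shares over all genes tested were 6.04% higher and 4.84% lower. The median log2 fold change of the 24 was -0.02. Apaf1, the scaffold of the apoptosome, read 226.1 ± 10.4 CPM in DMSO and 228.7 ± 6.27 CPM in Yoda1 (SD, n = 4) and was not called (adjusted p = 0.831). Casp9, the initiator caspase, had a log2 fold change of -0.11 (adjusted p = 0.473). Parp1, a DNA-repair enzyme cleaved during apoptosis, fell from 115.9 ± 2.63 to 104.2 ± 2.72 CPM (log2 fold change -0.15, adjusted p = 0.00957). Birc3, an inhibitor of apoptosis protein induced by NF-kappaB, rose from 166.1 ± 1.495 to 181.3 ± 2.72 CPM (log2 fold change 0.13, adjusted p = 0.018), and the call was lost without Yoda1 replicate 2 (0.11, adjusted p = 0.0559) and under 3 other settings. Cycs, which encodes cytochrome c, rose from 146.1 ± 5.89 to 158.5 ± 4.59 CPM (log2 fold change 0.12, adjusted p = 0.0481), just inside the threshold. That call was lost in 11 of 16 settings, among them without DMSO replicates 2, 3 or 4 and without Yoda1 replicates 1, 3 or 4, with adjusted p-values of 0.133, 0.153, 0.0839, 0.108, 0.132 and 0.0853 in turn.

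Moap1, which encodes an activator of BAX, had the largest fitted change of the pathway, and that change was not there once its overlapping neighbour was added. It had 65, 110, 54 and 46 counts in DMSO and 18, 33, 13 and 33 in Yoda1, which is 4.07, 6.02, 3.45 and 3.40 CPM against 1.453, 2.009, 0.9747 and 1.697 CPM. The log2 fold change was -1.45 (SE 0.219, adjusted p = 3.76e-05). Moap1 (chromosome 12, 102742230 to 102743661, minus strand) shares 84.3% of its 50-base exon stretches with other genes, and its exons overlap Gm20604 on the same strand. Gm20604 read 9.58, 6.96, 10.7 and 11.3 CPM in DMSO and 13.6, 11.7, 10.9 and 12.9 CPM in Yoda1, a log2 fold change of 0.37 in the other direction (adjusted p = 0.0463). Added together, after seeing the data, both genes gave 13.6, 13.0, 14.1 and 14.7 CPM in DMSO and 15.1, 13.7, 11.8 and 14.6 CPM in Yoda1, a log2 ratio of -0.01 (exact permutation test, two-sided, p = 0.914). The fall is therefore a fall in the reads assigned to the Moap1 symbol, and how the authors assigned reads in the overlap is not given in the sources used here.

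In the death receptor arm, which reaches the mitochondrion through Bid, 3 of 11 genes tested were called higher and 0 lower. Beside this, 6.04% of all genes tested were called higher and 4.84% lower. The median log2 fold change of the 11 was 0.08. Fasl, the ligand that activates FAS on neighbouring cells, read 7.89, 8.16, 7.67 and 11.5 CPM in DMSO and 12.5, 11.3, 13.5 and 14.4 CPM in Yoda1. DMSO replicate 4 stood apart from the other 3 and slightly above Yoda1 replicate 2, so the groups overlapped. The log2 fold change was 0.57 (SE 0.112, adjusted p = 0.00105), it was called in all 16 other settings, and the exact permutation test on CPM gave a two-sided p of 0.0571. Fasl is also a gene of activated T and natural killer cells, whose summed markers are given above, and their part in the result was not tested. Cflar (log2 fold change 0.13, adjusted p = 0.0238), which encodes the caspase-8 inhibitor c-FLIP, was called with non-overlapping groups, as was Ripk1 (0.13, adjusted p = 0.0354), a kinase adaptor of the TNF receptor. The Cflar call was lost without DMSO replicate 1 or Yoda1 replicates 1, 2 or 4 (adjusted p of 0.0602, 0.0744, 0.0898 and 0.057), and that of Ripk1 without DMSO replicates 3 or 4 or Yoda1 replicates 1, 2 or 4 (adjusted p of 0.114, 0.0558, 0.0843, 0.056 and 0.103). Casp8 was not called (log2 fold change 0.08, adjusted p = 0.202).

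Among 27 genes that act upstream on the BCL2 family, through transcription, kinase signalling or protein turnover, 4 were called higher and 3 lower. Genome-wide, 6.04% of the genes tested were called higher and 4.84% lower. The median log2 fold change of the 27 was 0.06. Rel, the NF-kappaB subunit c-Rel, read 16.5, 17.9, 18.2 and 18.9 CPM in DMSO and 32.7, 32.4, 27.4 and 30.2 CPM in Yoda1, a log2 fold change of 0.78 (SE 0.070, adjusted p = 2.29e-09). Nfkb1 also rose (log2 fold change 0.22, adjusted p = 3.46e-05), from a far higher count. Gfi1, a zinc-finger repressor needed for ILC2 identity, read 43.6 to 45.2 CPM in DMSO and 61.5 to 68.7 CPM in Yoda1 (log2 fold change 0.55, adjusted p = 1.42e-09). Mdm2, the ubiquitin ligase that restrains p53 and is itself a p53 target, rose by 0.17 on the log2 scale (adjusted p = 0.00191). For Trp53, from which the p53 protein is made, the 4 Yoda1 libraries lay above the 4 DMSO libraries without a call (log2 fold change 0.07, adjusted p = 0.215).

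The 3 upstream genes that fell were Trp73, Pim2 and Atf4. Trp73, a p53 relative, read 30.3, 32.9, 32.1 and 28.7 CPM in DMSO and 21.7, 21.5, 23.8 and 22.5 CPM in Yoda1, and its log2 fold change was -0.47 (SE 0.065, adjusted p = 5.35e-06). Atf4, the stress-response factor that can induce several BH3-only genes, had a log2 fold change of -0.18 (adjusted p = 0.00224). Pim2, a survival kinase that phosphorylates BAD, had one of -0.19 (adjusted p = 0.021), and its call was lost on leaving out replicate 2 of DMSO (-0.17, adjusted p = 0.0874) or replicate 2 of Yoda1 (-0.13, adjusted p = 0.113), and also with DESeq2 (adjusted p = 0.0529) and the replicate block (adjusted p = 0.0527).

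**Figure D4:**
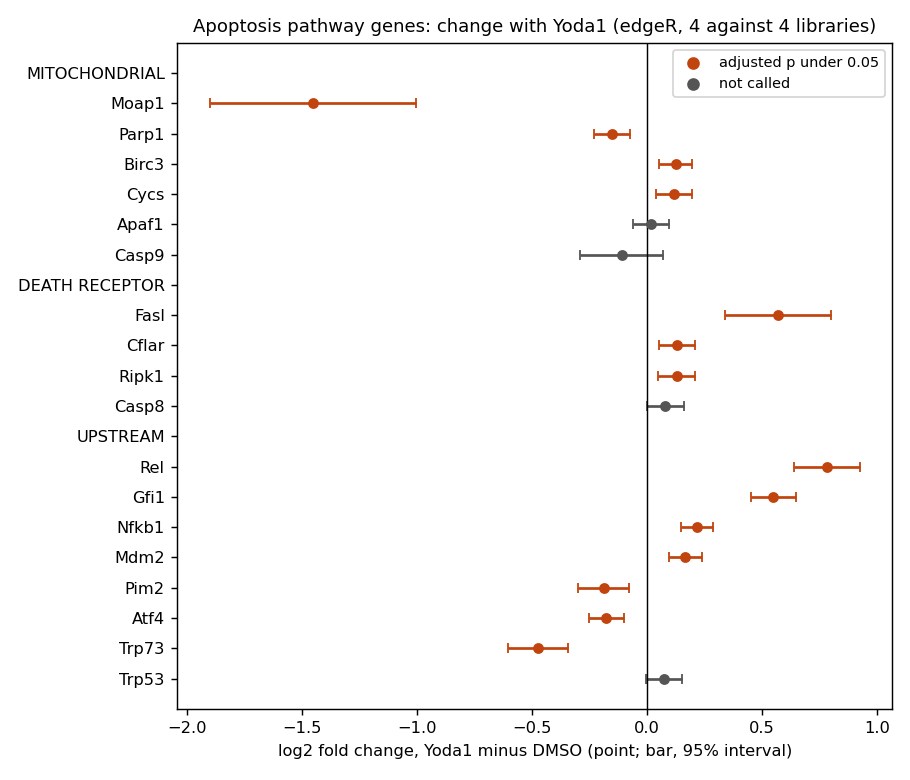
Change of the named genes around the BCL2 family. The horizontal axis is the log2 fold change of Yoda1 minus DMSO over 4 against 4 libraries, with edgeR estimates as points, 95% intervals as bars and adjusted p under 0.05 in orange, for the mitochondrial machinery, the death receptor arm and upstream regulators. Rel at 0.78 is the highest point and Moap1 at -1.45 the lowest. Exons of Moap1 overlap those of Gm20604, and how reads in the overlap were assigned is not given.

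The genes whose profiles over the 8 libraries lay nearest to the called members were found among 8806 genes with a mean of at least 10 CPM, by the root mean square difference of log2 CPM centred on the DMSO mean. Nearest to Pmaip1 were Atp2b1, a plasma membrane calcium pump, at 0.0236, Dach2 at 0.029 and Twsg1 at 0.0292, all log2 units. Nearest to Bcl2l11 were Dusp4, a MAP kinase phosphatase, at 0.0787, the clock gene Per1 at 0.0848 and the histone demethylase Kdm6b at 0.0994. The neighbours of Bcl2l11 lay farther from it than those of Pmaip1 did, and Bcl2l11 also had the lower counts. With a minimum mean of 50 CPM Atp2b1 stayed nearest to Pmaip1 and Per1 became nearest to Bcl2l11.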

How the data were processed

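Poly(A)-selected mRNA of cultured ILC2s was sequenced in 8 libraries with a directional kit (NEBNext Ultra II Directional). Per library, the authors deposited whole-number counts of reads by gene symbol, not normalized. Reads were checked with FastQC, trimmed with FASTX Trimmer and handled with BBMap and Cufflinks in the paper's account, and the submitters' processing notes name TopHat and mm10. Versions, annotation, counter and strand setting are not given in the sources used here.

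Genes were filtered with filterByExpr (minimum count 10, minimum total 15), libraries scaled with TMM (factors 0.988 to 1.01) and groups compared by edgeR 4.0.16 (R 4.3.3) with the quasi-likelihood test and robust fitting, over all 12239 genes, at an adjusted p of 0.05. The SE is the absolute log2 fold change over the root of F. Single genes also had a two-sided exact permutation test of CPM. Cuffdiff, used in the study, cannot be run on count tables. Every pair of libraries within a group differed by more than sampling noise (chi-square per gene 2.03 to 6.94). Intervals cover the spread between libraries, and depth limits genes of low count such as Bcl2l11. Positions and exon lengths came from GENCODE M21 (GRCm38), which matched 95.5% of symbols, and promoters from RefSeq.

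The members, gene lists, motifs and tests were chosen with earlier results of these data known. Named genes are all members, every other tested family gene, called genes of the pathway lists (at most 8 a list), Apaf1, Casp9, Casp8, Cflar and Trp53, and the 3 genes nearest in pattern to each called member. Gm20604 was named after its values were seen. Alternatives were DESeq2 1.42.0, limma-voom (limma 3.58.1), RLE factors, upper-quartile factors, library size only, no filter, at least 10 counts in every library, the replicate block and each library left out. On simulated data for this comparison (12239 genes drawn, 12165 tested), edgeR recovered 97% of 100 genes changed by 1 on the log2 scale and 65% of 100 changed by 0.3, and 6.36% of its calls were false. Replicate numbers are shared between groups, but no pairing of same-numbered libraries was evident in the values. The position of Pmaip1 and the values of 1 other gene that the rule names are not reported here.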

Additional observations from a re-analysis of the deposited data

Results flagged for a closer look

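Among 45 named genes in both groups, 90 groups of 4 libraries were examined for a library far from the other 3 (Dixon's test at 95%), and 6 were found where chance gives about 4.5. Bcl2l11 was high in Yoda1 replicate 2, at 13.3 CPM with the next library at 11.6. Bad was high in Yoda1 replicate 1, at 19.8 CPM, and Bcl2a1d in DMSO replicate 1, at 18.2 CPM. Fasl was high in DMSO replicate 4, at 11.5 CPM with the next library at 8.16. Birc3 at 185 CPM and Kdm6b at 104 CPM were high in Yoda1 replicate 2. None of the 10 members, and neither Bcl2a1d, Fasl nor Kdm6b, changed its call when any 1 library was left out, whereas Birc3 was no longer called without that replicate (adjusted p = 0.0559).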

How the results depend on the processing

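Of the 10 members, Bcl2l11 and Pmaip1 were called higher under all 16 alternatives to the edgeR fit, and 1 member, Bcl2, was called lower with upper-quartile factors and under no other. With 1 library left out in turn, the members called numbered 2 higher and 0 lower each time, their median log2 fold change ran from 0.01 to 0.06, and the other family genes called higher stayed at 2. Over all genes, leaving out 1 library gave 893 (without Yoda1 replicate 4) to 1484 called genes, and the genes called lower, 592 in the edgeR fit, numbered 367 without DMSO replicate 2, 374 without Yoda1 replicate 4, 372 with DESeq2 and 958 with upper-quartile factors. The death receptor genes called higher fell from 3 to 1 with library size only, upper-quartile factors or the replicate block, and ran from 1 to 3 with 1 library left out. The mitochondrial genes called higher fell from 2 to 1 with DESeq2 and limma-voom and to 0 with library size only, upper-quartile factors or the replicate block, and ran from 1 to 2 with 1 library left out. Upstream genes called lower rose from 3 to 5 with upper-quartile factors and ran from 2 to 4 with 1 library left out, and Pim2 was not called with DESeq2 or the replicate block. The cause was not tested. With the longest protein-coding transcript as length, DMSO levels became 11.1 CPM per kilobase for Bad, 123 for Bax, 38.4 for Bbc3, 67.4 for Bcl2, 75.3 for Bcl2l1, 1.72 for Bcl2l11 and 6.87 for Bid, since the lengths are shorter. Moap1 summed with Gm20604 gave a log2 ratio of -0.01.

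No pairing by replicate number was evident: the correlations of deviations between same-numbered libraries were 0.0482, 0.0711, -0.0277 and 0.000226. Those between libraries of different numbers ran from -0.125 to 0.0768. Such correlations cannot show whether the libraries were paired by design, which the labels do not say. With the replicate block 966 genes were called, 548 higher and 418 lower, the members stayed at 2 higher and 0 lower and their median was 0.04. The depth of 114 to 223 counts a library limits Bcl2l11, and counts of 13 to 110 limit Moap1.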
